A study of Mus musculus with 6 samples.

Results

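Mesenchymal identity transcription factors are the DNA-binding proteins that establish and maintain the fibroblast state. Here 10 of their genes were followed in fibroblasts from mouse ear kept on soft gel, stiffer gel or glass. The members were a fixed list of symbols, namely the homeobox genes Prrx1 and Prrx2, the basic helix-loop-helix (bHLH) genes Twist1, Twist2, Tcf4 and Tcf21, and the zinc finger genes Snai1, Snai2, Zeb1 and Zeb2. All 10 were found among the 57010 gene identifiers of the count table, and 9 had enough counts to be tested. Tcf21 had 0 counts in all 6 libraries.

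The study asked how matrix stiffness acts on the epigenetic state of cells during induced neuronal reprogramming. Polyadenylated RNA was sequenced after 3 days of culture on a polyacrylamide hydrogel of 1 kPa, on one of 20 kPa, or on glass, the control, with 2 libraries per substrate. Polyacrylamide gels are inert supports that can be cast at a chosen stiffness, and glass is much harder than both gels. All 3 groups were fibroblasts from mouse ear, plated at 500000 cells. The labels give no strain, age or added reprogramming factor for them. Nor do they tell if the libraries of a substrate are from different cultures or animals, and p-values therefore cover just the variation between these samples, possibly technical in origin.

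SNAI, ZEB and TWIST proteins are best known as drivers of epithelial-mesenchymal transition, in which they bind E-box sequences in epithelial genes such as Cdh1 and repress them. PRRX1 and PRRX2 mark mesenchyme of limb, face and dermis in the mouse, and TWIST2 (Dermo1) was described in developing mouse dermis. TCF4 is an E protein, the common dimer partner of tissue-restricted bHLH factors such as TWIST and TCF21, and the ID proteins take E proteins out of such dimers.

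Library totals were between 17669006 and 21350111 counts, and 16093 genes entered the test. The log2 levels of the 2 libraries of a group had a correlation over all genes of 0.992 to 0.993, but their counts differed by more than sampling noise, most of all on glass (chi-square over its degrees of freedom 10.5 for 1 kPa, 3.61 for 20 kPa and 39.7 for glass). Glass replicate 2 stood apart in 1 respect: an unnamed identifier, ENSMUSG00000119584.1, took 5.1% of its counts, against 0.947% to 2.9% in the other libraries. The chi-square values are sums over all genes, so this abundant identifier weighs heavily in those of glass and 1 kPa. They therefore do not describe the typical gene. All 12 fibroblast markers were tested, and their summed level was 30047 and 28852 CPM (reads of a gene relative to the depth of its library, with TMM-scaled depths) on 1 kPa, 33359 and 32026 CPM on 20 kPa and 21218 and 19885 CPM on glass. That sum was mostly the collagen genes Col1a1, Col1a2 and Col3a1. Some single markers changed by much more than the sum. Dcn had means of 3542 CPM on 1 kPa, 2913 CPM on 20 kPa and 157 CPM on glass. The means of Lum were 938, 884 and 45.8 CPM on the same substrates. Against glass, 10 of the 12 rose and 2 fell on 1 kPa, where 45% of all genes passed. On 20 kPa 9 rose and 2 fell, where 41.8% of all genes passed. Vim and S100a4 fell on both gels. The neuronal factor genes Pou3f2 and Myt1l had at most 3 counts in a library.

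All members are annotated as protein-coding in GENCODE M21 on GRCm38, and their values are reads per gene. Prrx1 (ENSMUSG00000026586.17) occupies bases 163245119 to 163313710 of chromosome 1 (minus strand), and Twist2 (ENSMUSG00000007805.5) bases 91801461 to 91848028 of the same chromosome (plus strand). Chromosome 2 holds Prrx2 (ENSMUSG00000039476.14) from 30834972 to 30881251 and Snai1 (ENSMUSG00000042821.8) from 167538195 to 167542814 in plus orientation, and Zeb2 (ENSMUSG00000026872.19) from 44983632 to 45117395 in minus orientation. Twist1 (ENSMUSG00000035799.7) lies on chromosome 12 from 33957671 to 33959829, Snai2 (ENSMUSG00000022676.8) on chromosome 16 from 14705852 to 14709385, in plus orientation, and Tcf21 (ENSMUSG00000045680.9) on chromosome 10 from 22817281 to 22820174, in minus orientation. Zeb1 and Tcf4 are both on chromosome 18. Of the exonic length of Twist2, 46.5% overlaps the antisense gene Gm29100, which had 22 to 47 counts in a library against 312 to 559 for Twist2. The strand setting of the counting is unknown here, which leaves the level of Twist2 uncertain. The overlap was 3.3% for Zeb2, 1.93% for Zeb1 and 0 for the other members.

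Between genes, levels were compared as CPM per kb of annotated exon. Snai1 had 124 CPM per kb on 1 kPa, 127 CPM per kb on 20 kPa and 88.1 CPM per kb on glass, and Twist1 had 107, 116 and 102 CPM per kb on the same substrates. Prrx2 followed with 85.5 CPM per kb on 1 kPa, 95.1 CPM per kb on 20 kPa and 58.8 CPM per kb on glass. Zeb2, with 6.31, 4.99 and 3.35 CPM per kb, was the lowest of the 9 members with counts. The 4 highest members, Snai1, Twist1, Prrx2 and Prrx1, were the same on each substrate and with either measure of length. Prrx1 held the fourth place throughout. The order among the other 5 changed with the length used: per kb of the longest coding transcript, Tcf4 was the fifth on each substrate, with 29 CPM per kb on 1 kPa, 35.8 CPM per kb on 20 kPa and 26.4 CPM per kb on glass.

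**Figure D1:**
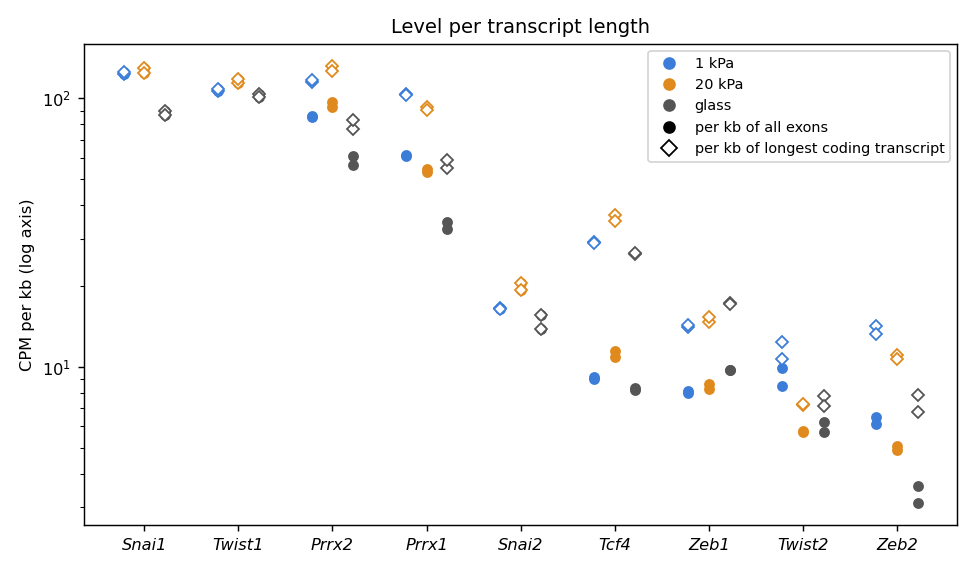
Level of each tested member per transcript length, as CPM per kb on a log axis, with 1 point per library for each substrate; filled circles use the length of all annotated exons and open diamonds that of the longest coding transcript. Snai1, Twist1, Prrx2 and Prrx1 lie above the other members with either length, and Zeb2 is the lowest per kb of all exons.

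Prrx1, Prrx2, Snai1 and Zeb2 rose on both gels, and their promoter sequences are shown for that reason. They are the 250 bases before the RefSeq start on the sense strand, in GRCm38.p6. Capitals mark CACCTG, the reverse complement of the E-box CAGGTG that SNAI and ZEB proteins bind, and TAATTA, a core bound by many homeodomain proteins.
Prrx1 (chr1:163313651-163313900, minus strand): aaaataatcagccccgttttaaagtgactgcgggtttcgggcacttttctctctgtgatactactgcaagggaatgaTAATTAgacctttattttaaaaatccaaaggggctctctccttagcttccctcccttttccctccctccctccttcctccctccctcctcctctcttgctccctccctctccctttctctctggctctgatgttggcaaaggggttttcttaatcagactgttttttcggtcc
Prrx2 (chr2:30845117-30845366, plus strand): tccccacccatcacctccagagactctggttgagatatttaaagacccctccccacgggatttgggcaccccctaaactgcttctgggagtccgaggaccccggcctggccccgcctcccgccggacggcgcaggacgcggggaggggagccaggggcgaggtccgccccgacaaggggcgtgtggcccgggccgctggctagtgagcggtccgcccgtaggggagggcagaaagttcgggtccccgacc
Snai1 (chr2:167537945-167538194, plus strand): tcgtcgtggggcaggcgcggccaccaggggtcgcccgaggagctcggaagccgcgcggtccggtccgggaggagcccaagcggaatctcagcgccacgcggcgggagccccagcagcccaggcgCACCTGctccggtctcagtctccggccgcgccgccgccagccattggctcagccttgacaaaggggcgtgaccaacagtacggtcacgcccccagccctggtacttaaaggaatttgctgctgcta
Zeb2 (chr2:45117443-45117692, minus strand): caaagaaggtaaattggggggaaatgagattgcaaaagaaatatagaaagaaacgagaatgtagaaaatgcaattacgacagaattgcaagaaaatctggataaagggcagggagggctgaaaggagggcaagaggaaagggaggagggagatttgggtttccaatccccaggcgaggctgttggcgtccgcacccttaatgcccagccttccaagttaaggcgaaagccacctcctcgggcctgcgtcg
Snai1 holds 1 CACCTG, whose first base is 126 bases before the start, and Prrx1 holds 1 TAATTA, whose first base is 173 bases before it. Prrx2 and Zeb2 hold neither these nor any other CANNTG E-box in this window. Searched on both strands, CAGGTG occurs in 17.2% of all 32851 promoter windows of that length, CANNTG, which includes it, in 66.2%, and TAATTA in 4.84%. Of the 7 members with an entry in the promoter table, 1 holds CAGGTG, the same 1 holds a CANNTG of any kind, and 1 holds TAATTA. The windows of Snai1 and Prrx2 are GC-rich, at 70% each, whereas those of Prrx1 and Zeb2 have 47.6% and 49.6%, against a median of 52.4% over all windows.

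The homeobox genes Prrx1 and Prrx2 both rose on the gels. Prrx1, which encodes a paired-class homeodomain factor of limb and facial mesenchyme, had 679 and 674 CPM on 1 kPa, 603 and 588 CPM on 20 kPa, and 360 and 383 CPM on glass. The 3 groups did not overlap, and the order was 1 kPa, 20 kPa, glass. Prrx1 was 1.82-fold higher on 1 kPa than on glass (log2 fold change 0.86, SE 0.06, edgeR adjusted p = 1.3e-13) and 1.6-fold higher on 20 kPa than on glass (0.68, SE 0.06, edgeR adjusted p = 3.1e-11). On 20 kPa it was lower than on 1 kPa by a small margin (log2 fold change -0.18, SE 0.06, edgeR adjusted p = 0.02). That last call was lost without any 1 of the 4 gel libraries (adjusted p 0.1 to 0.19) and with total counts in place of TMM (0.15). In bulk RNA, a change in the share of cells that express a gene and a change in its RNA per cell cannot be told apart, which holds for every value here.

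Prrx2, the close relative of Prrx1, had 166 and 169 CPM on 1 kPa, 191 and 182 CPM on 20 kPa, and 111 and 120 CPM on glass. Both gels lay above glass in every library, and 20 kPa was the highest. It rose by 0.54 on the log2 scale (SE 0.06, edgeR adjusted p = 8.8e-09) on 1 kPa and by 0.69 (SE 0.06, edgeR adjusted p = 5.3e-11) on 20 kPa, each against glass. Between the gels, the log2 fold change of 20 kPa over 1 kPa was 0.15 (SE 0.06) and did not pass (edgeR adjusted p = 0.066). It passed with total counts (adjusted p = 0.032), with only the gels in the fit (0.013) and without either glass library (0.012).

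**Figure D2:**
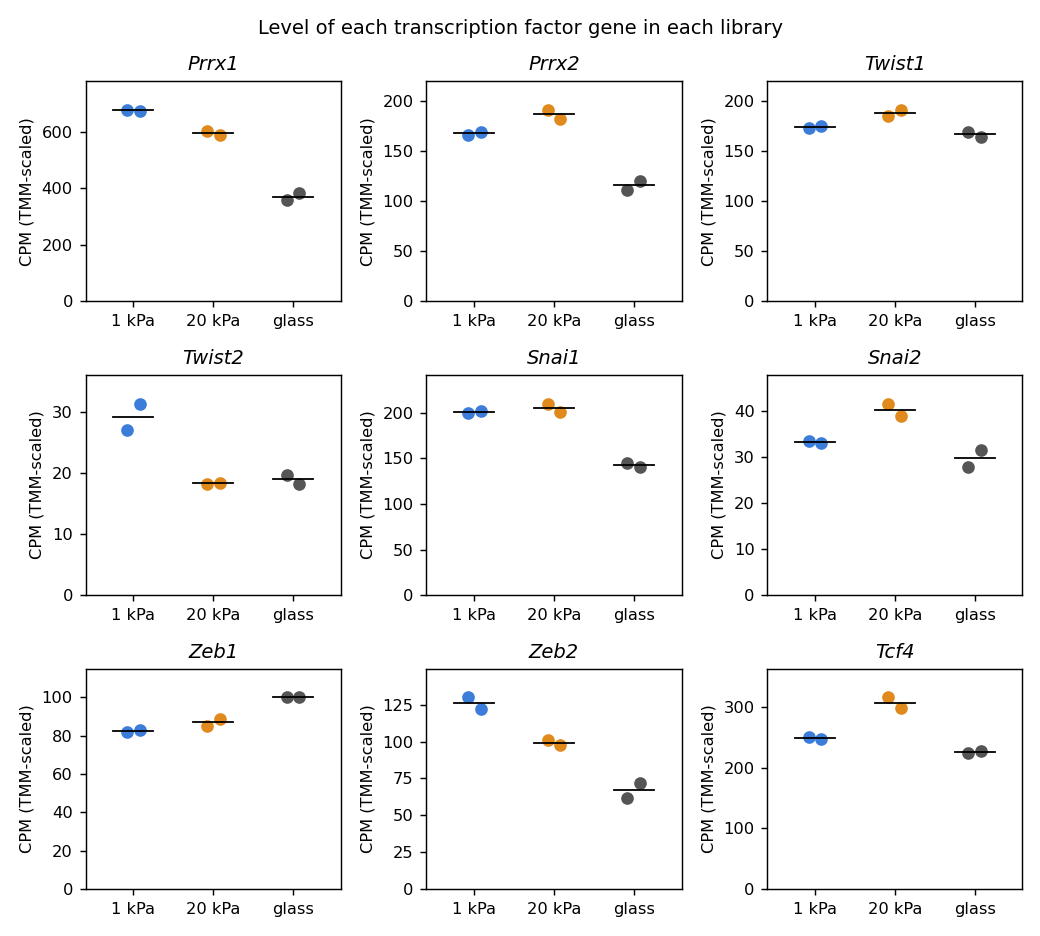
CPM of each tested member in each library by substrate (2 points per substrate, bar at their mean, axes from 0). Prrx1 and Zeb2 step down through 1 kPa, 20 kPa and glass, Twist2 is high on 1 kPa alone at 27 and 31.3 CPM, and Zeb1 is the member highest on glass, at 100 CPM in both libraries.

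Of the TWIST genes, Twist1 moved little and Twist2 was higher on 1 kPa than on either stiffer substrate. Twist1, a bHLH factor of cranial and limb mesenchyme, had 173 and 175 CPM on 1 kPa, 185 and 191 CPM on 20 kPa, and 169 and 164 CPM on glass. Its levels on 1 kPa and glass differed by a log2 fold change of 0.06 (SE 0.06), which did not pass (edgeR adjusted p = 0.37). Against glass, Twist1 rose on 20 kPa (0.18, SE 0.06, edgeR adjusted p = 0.012), which no longer passed without 20 kPa replicate 2 (adjusted p = 0.11). The 20 kPa over 1 kPa difference of 0.11 (SE 0.06) did not pass (edgeR adjusted p = 0.17).

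Twist2 had 27 and 31.3 CPM on 1 kPa, 18.2 and 18.3 CPM on 20 kPa, and 19.7 and 18.1 CPM on glass. The 1 kPa libraries stood above the other 4, and those of 20 kPa and glass overlapped. Twist2 rose on 1 kPa by 0.62 on the log2 scale (SE 0.10, edgeR adjusted p = 5e-06) against glass, and it was lower on 20 kPa than on 1 kPa by -0.67 (SE 0.10, edgeR adjusted p = 4.8e-06). Its 20 kPa over glass value was -0.05 (SE 0.10, edgeR adjusted p = 0.72). The antisense gene Gm29100 had 47 and 36 counts on 1 kPa, 22 and 35 counts on 20 kPa, and 45 and 28 counts on glass. Both of its 1 kPa counts lay above both 20 kPa counts, the direction that Twist2 took between the gels, and glass overlapped both. Its part in the level of Twist2 was not tested.

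Snai1 rose about equally on both gels, and Snai2 rose on 20 kPa. Snai1, the zinc finger repressor SNAIL, had 199.5 and 201.9 CPM on 1 kPa, 210.0 and 200.9 CPM on 20 kPa, and 145.0 and 140.5 CPM on glass. Its gel libraries overlapped each other and lay above glass. Against glass it rose by 0.49 on the log2 scale (SE 0.06, edgeR adjusted p = 2.5e-08) on 1 kPa and by 0.52 (SE 0.06, edgeR adjusted p = 7.5e-09) on 20 kPa, and the 20 kPa over 1 kPa value was 0.03 (SE 0.06, edgeR adjusted p = 0.74).

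Snai2, which encodes SLUG, had 33.5 and 33.1 CPM on 1 kPa, 41.6 and 39 CPM on 20 kPa, and 27.9 and 31.6 CPM on glass. The 20 kPa libraries were the highest. It rose on 20 kPa by 0.44 on the log2 scale (SE 0.08, edgeR adjusted p = 7.2e-05) against glass and by 0.28 (SE 0.08, edgeR adjusted p = 0.018) against 1 kPa. The comparison with 1 kPa no longer passed with DESeq2 (adjusted p = 0.085), without either 1 kPa library (0.099 and 0.14) or without 20 kPa replicate 1 (0.17). The 1 kPa over glass value was 0.17 (SE 0.09, edgeR adjusted p = 0.12), and the value rested on the glass libraries: it was 0.07 (adjusted p = 0.58) without glass replicate 1 and 0.25 (adjusted p = 0.035) without glass replicate 2. Snai3, the third gene of the family, had 0 to 2 counts in a library.

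The ZEB genes moved in opposite directions. Zeb2, a zinc finger and homeodomain repressor also called SIP1, had 130 and 122 CPM on 1 kPa, 101 and 97.6 CPM on 20 kPa, and 62 and 71.8 CPM on glass. The 3 groups did not overlap. Zeb2 was 1.89-fold higher on 1 kPa than on glass (log2 fold change 0.92, SE 0.07, edgeR adjusted p = 2.4e-12), 1.49-fold higher on 20 kPa than on glass (0.58, SE 0.07, edgeR adjusted p = 4.8e-08), and lower on 20 kPa than on 1 kPa (-0.34, SE 0.07, edgeR adjusted p = 0.00035).

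Zeb2 is also known in myeloid cells and Schwann cells of the mouse, and the summed markers of both were higher on the gels than on glass. The 10 macrophage and leukocyte markers summed to 56.6 and 56.9 CPM on 1 kPa and 29 and 25.4 CPM on 20 kPa. On glass the sums were 17.1 and 18.3 CPM. Of 6 tested, 2 rose and 0 fell on 1 kPa against glass, where 45% of all genes passed. On 20 kPa against glass, 2 rose and 1 fell, where 41.8% of all genes passed. The marker that fell was Csf1r, with means of 2.79 CPM on 1 kPa, 2.09 CPM on 20 kPa and 3.92 CPM on glass. Most of the macrophage and leukocyte sum on 1 kPa was Cd14, with a mean of 42.5 ± 1.7 CPM (SD, n = 2). The pan-leukocyte marker Ptprc had 2 to 5 counts in a library and Itgam at most 3. The 10 Schwann cell and melanocyte markers summed to 43.3 and 42.5 CPM on 1 kPa and 47.2 and 47.2 CPM on 20 kPa. On glass the sums were 28.8 and 29.2 CPM. Of 8 tested, 4 rose and 1 fell on 1 kPa, and 6 rose and 1 fell on 20 kPa, each against glass. Among them the glial factor Sox10 had 94 and 74 counts on 1 kPa, 45 and 44 counts on 20 kPa, and 19 and 7 counts on glass. The myelin gene Mbp went the other way, with 1.56 and 1.4 CPM on 1 kPa, 1.66 and 1.5 CPM on 20 kPa, and 8.46 and 8.76 CPM on glass. Mitf, a melanocyte factor gene, made up much of the sum, with means of 21.9 CPM on 1 kPa, 18.6 CPM on 20 kPa and 9.03 CPM on glass. S100b was high on 20 kPa alone, with means of 5.53 CPM on 1 kPa, 15.1 CPM on 20 kPa and 5.04 CPM on glass. The part of these cells in the level of Zeb2 was not tested.

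Zeb1, the other ZEB repressor, had 81.8 and 83.2 CPM on 1 kPa, 85.1 and 88.9 CPM on 20 kPa, and 100 CPM in both glass libraries. It was the 1 member that fell on the gels, by 0.28 on 1 kPa (SE 0.06, edgeR adjusted p = 0.00044) and by 0.20 on 20 kPa (SE 0.06, edgeR adjusted p = 0.0088) on the log2 scale. The 20 kPa call was lost with total counts (adjusted p = 0.054) and without 20 kPa replicate 1 (0.12). The gels differed by 0.08 (SE 0.06, edgeR adjusted p = 0.43), 20 kPa over 1 kPa.

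Tcf4, the E protein partner, was highest on 20 kPa. It had 250 and 248 CPM on 1 kPa, 316 and 298 CPM on 20 kPa, and 225 and 228 CPM on glass, and no groups overlapped. It rose on 20 kPa by 0.44 on the log2 scale (SE 0.06, edgeR adjusted p = 1.7e-07) against glass and by 0.30 (SE 0.06, edgeR adjusted p = 0.00016) against 1 kPa. The 1 kPa over glass value of 0.13 (SE 0.06) did not pass (edgeR adjusted p = 0.054), and it passed with upper-quartile factors or limma-voom (0.043 each), with a stricter filter (0.026) and without glass replicate 2 (0.04).

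Tcf21, a bHLH factor of visceral and cardiac mesenchyme in the mouse, had no counts, which allows a level of up to 0.139 to 0.174 CPM in a library (3 counts, counting error only).

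Counted together, 6 of the 9 tested members passed on 1 kPa against glass, 5 higher and 1 lower, where 45% of all tested genes passed, 23% higher and 22% lower. On 20 kPa against glass 8 passed, 7 higher and 1 lower, where 41.8% of all genes passed, 22.3% higher and 19.6% lower. On 20 kPa against 1 kPa 5 passed, 2 higher and 3 lower, against 18.9% of all genes, 8.94% higher and 9.92% lower. With total counts the last split was 3 higher and 2 lower, and over all genes 60.8% of calls were higher, against 47.4% with TMM. Both comparisons with glass rest on the same glass libraries. All libraries of one substrate lay on one side of the other's for 9 members on 1 kPa against glass (71% of all genes), for 8 on 20 kPa against glass (67.5%) and for 8 on 20 kPa against 1 kPa (60.1%). The 4 members higher on both gels and the 1 lower on both compare with 16.4% and 15.2% of all genes.

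The changes were moderate in size. The median log2 fold change of the 9 members was 0.49 on 1 kPa and 0.44 on 20 kPa, each against glass, beside medians of 0.00 and 0.02 over all tested genes. Between the gels it was 0.08 for 20 kPa over 1 kPa, beside 0.00 over all genes. The median size without sign was 0.49, 0.44 and 0.18 for these comparisons, beside 0.29, 0.27 and 0.17 over all genes. With all 6 libraries, no member reached a 2-fold change in any of the 3 comparisons. Zeb2 on 1 kPa over glass was 0.81 on the log2 scale without glass replicate 1 and 1.02, just over 2-fold, without glass replicate 2. All 9 passed the test over the 3 groups, as did 51.2% of all genes, with Twist1 nearest the threshold (edgeR adjusted p = 0.027). Twist1 did not pass that test with DESeq2 or without any 1 gel library.

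**Figure D3:**
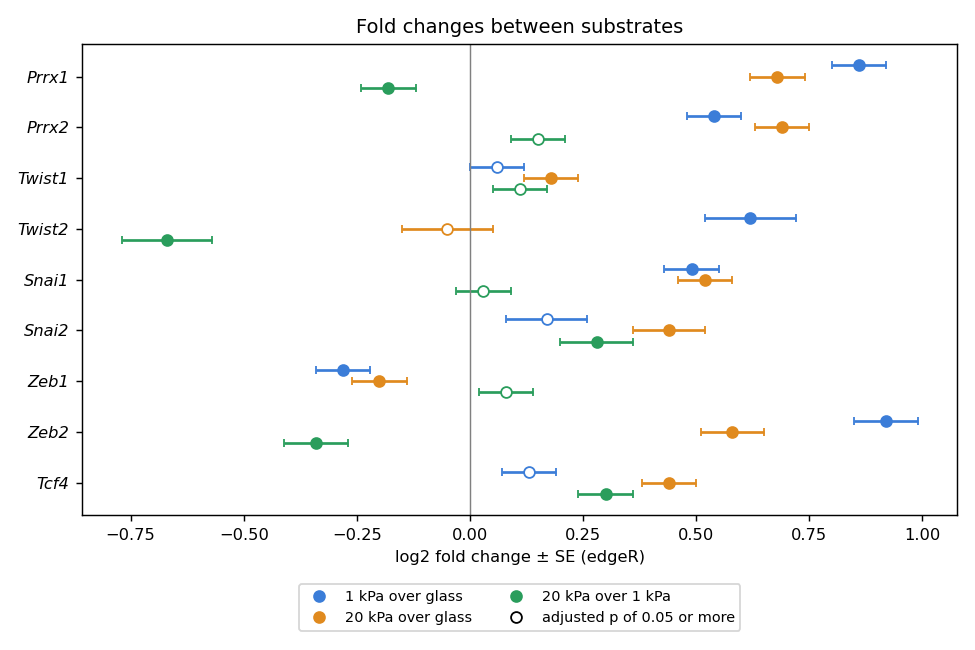
Log2 fold change ± SE (edgeR) of each tested member for 1 kPa over glass, 20 kPa over glass and 20 kPa over 1 kPa; open points have an adjusted p of 0.05 or more. Prrx1, Prrx2, Snai1 and Zeb2 lie above 0 in both comparisons with glass, Zeb1 below 0 in both, and Twist2 shows the lowest 20 kPa over 1 kPa value at -0.67.

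The balance within each family was read as the ratio of both genes in the same library, per kb of exon. For Zeb2 over Zeb1 the log2 ratio was -0.29 and -0.41 on 1 kPa, -0.71 and -0.82 on 20 kPa, and -1.65 and -1.44 on glass, so the means on 1 kPa and 20 kPa were 1.19 and 0.78 above that on glass. The 3 substrates did not overlap, and Zeb1 stayed above Zeb2 per kb in all 6 libraries. Per kb of the longest coding transcript the pair was level on 1 kPa, at 0.02 and -0.11.

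For Prrx1 over Prrx2 the log2 ratio was -0.47 and -0.50 on 1 kPa, -0.83 and -0.81 on 20 kPa, and -0.80 and -0.82 on glass. The 1 kPa libraries stood apart, and 20 kPa and glass overlapped. For Twist1 over Twist2 it was 3.64 and 3.45 on 1 kPa, 4.31 and 4.35 on 20 kPa, and 4.06 and 4.14 on glass, again lowest on 1 kPa. For Snai1 over Snai2 the ratio itself, not its log2, was 7.43 and 7.61 on 1 kPa, 6.29 and 6.42 on 20 kPa, and 6.48 and 5.55 on glass, where the glass libraries spanned those of 20 kPa. With 2 libraries against 2, an exact permutation test (two-sided) gives p = 0.333 at the lowest, so these ratios are given without a test.

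**Figure D4:**
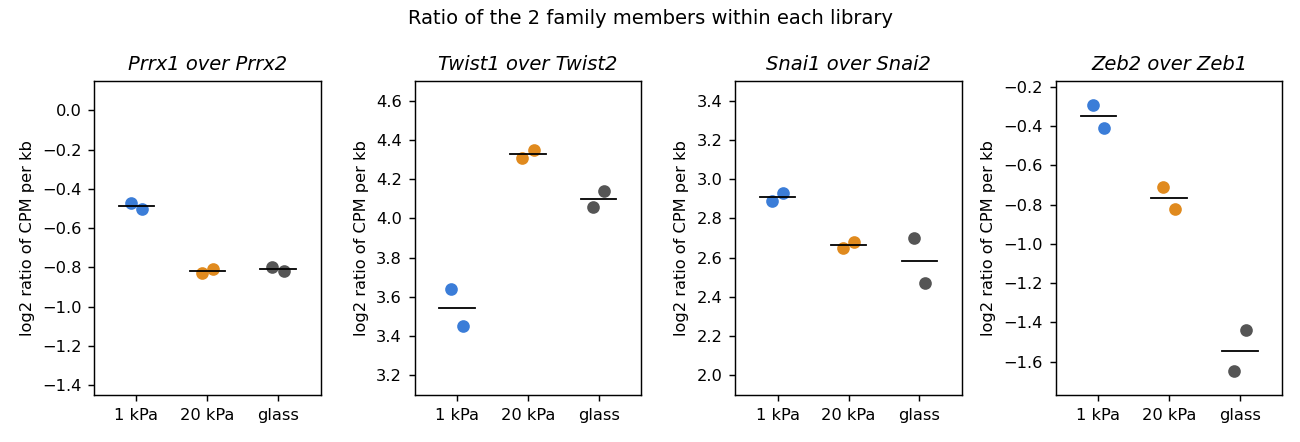
Log2 ratio of CPM per kb of all exons between the 2 genes of each family, 1 point per library with a bar at the mean; the 4 vertical axes have different origins and the same span. Zeb2 over Zeb1 steps down from 1 kPa through 20 kPa to glass, while Prrx1 over Prrx2 and Twist1 over Twist2 set 1 kPa apart from the other substrates.

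Genes that act with these factors were described from lists chosen by function. Against glass, 45% of all tested genes passed on 1 kPa and 41.8% on 20 kPa. The counts of each list and marker set below are to be read beside these shares. Among 7 tested bHLH partners and inhibitors of 11 listed, 4 rose and 1 fell on 1 kPa, and 4 rose and 0 fell on 20 kPa, each against glass. The genes that rose were those of the 4 ID proteins. Id3 had 491 and 479 CPM on 1 kPa, 445 and 467 CPM on 20 kPa, and 252 and 265 CPM on glass, and its log2 fold changes over glass were 0.91 (SE 0.06) on 1 kPa and 0.82 (SE 0.06) on 20 kPa. Id1 rose by 0.47 (SE 0.06) and 0.45 (SE 0.06), Id4 by 0.54 (SE 0.07) and 0.30 (SE 0.07), and Id2 by 0.29 (SE 0.07) and 0.43 (SE 0.07) on the same gels. The E protein gene Tcf12 fell on 1 kPa by 0.27 (SE 0.06), and Tcf3 did not pass in any comparison.

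Epithelial genes that these repressors are known to silence were sparse and mostly lower on the gels. Only 12 of 26 were tested. Cdh1, the classical target, had 6 and 7 counts on 1 kPa, 1 and 3 counts on 20 kPa, and 6 and 9 counts on glass. Of the 12, 0 rose and 9 fell on 1 kPa, and 1 rose and 8 fell on 20 kPa, each against glass. Their median log2 fold changes were -1.09 and -0.95. The filter bears on these counts and medians. St14 and Dsp entered the test through their glass libraries, and Grhl1, the 1 that rose, through those of 20 kPa. For such genes the filter favoured the direction seen. St14 had means of 0.133 CPM on 1 kPa, 0.291 CPM on 20 kPa and 1.08 CPM on glass. Of all tested genes, 22% fell on 1 kPa and 19.6% on 20 kPa. Tjp1, a tight junction scaffold that fibroblasts also express, had 110 and 107 CPM on 1 kPa, 121 and 110 CPM on 20 kPa, and 173 and 167 CPM on glass. It fell by 0.64 (SE 0.06) on 1 kPa and by 0.56 (SE 0.06) on 20 kPa. The junction protein gene Jup fell by 0.94 (SE 0.09) and 0.80 (SE 0.09), the keratin Krt19 by 0.51 (SE 0.13) and 1.10 (SE 0.13). Cldn1, a claudin gene, fell to 1.19 ± 0.1 CPM on 1 kPa and 1.05 ± 0.25 CPM on 20 kPa, against 3.42 ± 0.25 CPM on glass (SD, n = 2 each).

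Several of the epithelial genes rest on few counts. The number that fell on 1 kPa was 6 without 1 kPa replicate 2 or with the stricter filter. The number that fell on 20 kPa was 5 without either glass library, with DESeq2 or with the stricter filter, and the 1 that rose there no longer passed without either 20 kPa library or glass replicate 2. Keratinocyte markers moved with them: the 10 markers summed to 45.8 and 51.5 CPM on 1 kPa, 47.8 and 48.7 CPM on 20 kPa, and 99.5 and 106 CPM on glass, and of 7 tested 1 rose and 4 fell on 1 kPa, and 1 rose and 5 fell on 20 kPa. Krt5 had 2 and 3 counts on 1 kPa, 11 and 6 counts on 20 kPa, and 52 and 51 counts on glass. Krt5, Krt14 and Dsp, which fell on both gels, entered the test through their glass libraries, which favoured that direction. Most of the sum on glass was Perp, a desmosome-associated gene, with means of 17.2 CPM on 1 kPa, 18 CPM on 20 kPa and 76.4 CPM on glass. Trp63, the basal keratinocyte factor gene, was the 1 marker that rose, with means of 23.3 CPM on 1 kPa, 22.5 CPM on 20 kPa and 11.1 CPM on glass. The part of such cells in the fall was not tested.

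Mesenchymal genes of the same transition, all 24 of which were tested, moved both ways. On 1 kPa 13 rose and 8 fell against glass, where 45% of all genes passed. On 20 kPa 13 rose and 9 fell against glass, where 41.8% of all genes passed. The median log2 fold change of the list was 0.25 in each. The matrix protein gene Postn rose by 1.12 (SE 0.07) on 1 kPa and by 2.23 (SE 0.07) on 20 kPa, the gelatinase Mmp2 by 1.64 (SE 0.06) and 1.38 (SE 0.06), the tenascin Tnc by 1.52 (SE 0.07) and 1.22 (SE 0.07), and the cadherin Cdh11 by 1.20 (SE 0.06) and 1.34 (SE 0.06). Among those that fell, the N-cadherin gene Cdh2 fell by 1.01 (SE 0.07) on 1 kPa and 1.12 (SE 0.07) on 20 kPa, the intermediate filament gene Vim by 0.94 (SE 0.06) and 0.62 (SE 0.06), and the thrombospondin gene Thbs1 by 0.85 (SE 0.06) and 0.94 (SE 0.06).

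Among 18 corepressor and chromatin partners, 2 rose and 6 fell on 1 kPa, and 2 rose and 5 fell on 20 kPa, each against glass, where 45% and 41.8% of all genes passed. Over the alternatives, 1 to 4 rose and 5 to 7 fell on 1 kPa, and 0 to 3 rose and 3 to 6 fell on 20 kPa, with 3 falling without 20 kPa replicate 2. The number that rose was 1 on 1 kPa without either 1 kPa library or glass replicate 2, and 1 on 20 kPa without any 1 gel library or glass replicate 2. Ajuba, an LIM protein that binds SNAIL, had 67.8 and 69.8 CPM on 1 kPa, 70.8 and 69.5 CPM on 20 kPa, and 118 and 113 CPM on glass, and fell by 0.75 (SE 0.06) and 0.72 (SE 0.06). The corepressor gene Ctbp1 fell by 0.23 (SE 0.06) and 0.25 (SE 0.06), and Smarca4, the remodeller BRG1, by 0.25 (SE 0.06) and 0.24 (SE 0.06). The scaffold gene Sin3a rose by 0.34 (SE 0.07) and 0.22 (SE 0.07).

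Of 17 genes tied to the turnover or localisation of SNAIL and TWIST proteins, 5 rose and 3 fell on 1 kPa against glass. On 20 kPa against glass, 3 rose and 5 fell. Similar shares of all tested genes, 45% and 41.8%, passed in these comparisons. The 5 that rose on 1 kPa were 3 without 1 kPa replicate 1 or glass replicate 1, and 2 without 1 kPa replicate 2 or with DESeq2. The 5 that fell on 20 kPa were 3 without either 20 kPa library or with total counts. Loxl2, a lysyl oxidase relative reported to stabilise SNAIL, had 173 and 164 CPM on 1 kPa, 109 and 110 CPM on 20 kPa, and 65.7 and 65.3 CPM on glass. It rose by 1.36 (SE 0.06) on 1 kPa and by 0.74 (SE 0.06) on 20 kPa, and was lower on 20 kPa than on 1 kPa (-0.63, SE 0.06). The ubiquitin ligase subunit gene Fbxl5 rose by 0.65 (SE 0.07) and 0.26 (SE 0.07), the kinase gene Pak1 fell by 0.60 (SE 0.08) and 0.42 (SE 0.07), and the deubiquitinase gene Psmd14 fell by 0.38 (SE 0.07) and 0.20 (SE 0.07).

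Of 5 tested SNAI, ZEB and PRRX relatives, 2 rose and 2 fell on 1 kPa against glass, where 45% of all genes passed. On 20 kPa against glass, 3 rose and 1 fell, where 41.8% of all genes passed. Without 1 kPa replicate 1, 1 fell on 1 kPa. Zfhx3, a large zinc finger homeobox gene, fell on both gels, by 0.67 (SE 0.07) and 0.51 (SE 0.07). Its relative Zfhx4 fell by 0.24 (SE 0.07) on 1 kPa and rose by 0.26 (SE 0.06) on 20 kPa, with 0.50 (SE 0.07, edgeR adjusted p = 8.5e-07) for 20 kPa over 1 kPa. The homeobox gene Alx4 rose to 3.82 ± 0.86 CPM on 1 kPa and 3.11 ± 1.7 CPM on 20 kPa, against 0.782 ± 0.12 CPM on glass (SD, n = 2 each).

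**Figure D5:**
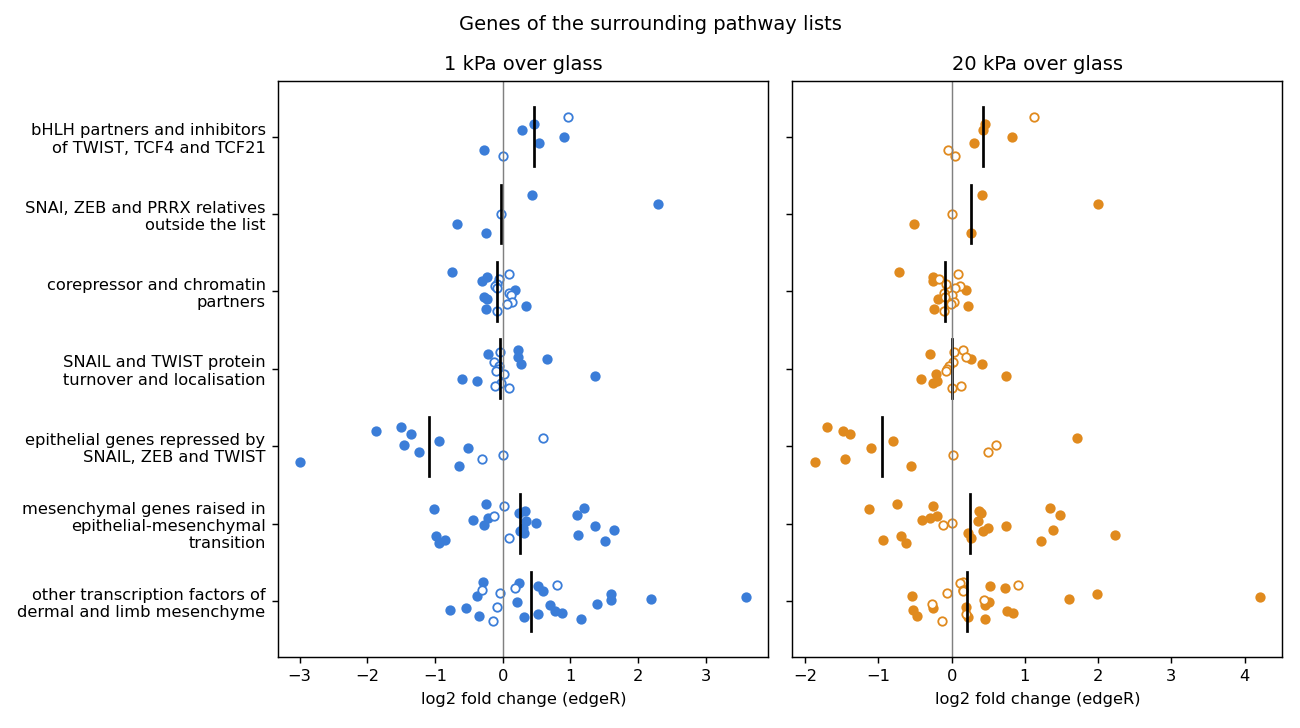
Log2 fold change over glass of every tested gene of the 7 surrounding lists on 1 kPa (left) and 20 kPa (right); filled points have an adjusted p under 0.05 and black bars mark each list's median. The epithelial list lies mostly below 0, with medians of -1.09 and -0.95, and the mesenchymal list spreads to both sides. Of the epithelial list, St14 and Dsp entered the test through glass and Grhl1 through 20 kPa, which favoured their direction.

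The genes most like each member over the 6 libraries were sought among 10678 protein-coding genes with a mean of at least 5 CPM, by the Pearson correlation of log2 CPM, as a description of 3 substrates rather than of 6 independent points. Zeb2 was closest to Jak2 (0.999) and Ptpn2 (0.998), and Twist2 to Nfkb1 (0.992) and Mapkapk2 (0.991). Prrx1 was closest to Dcaf11 and Tnfsf11 (0.999 each), Prrx2 to Selenop (0.998) and Cd1d1 (0.997), and Snai1 to Neo1 and Bgn (0.999 each). Snai2 was closest to Coch (0.998) and Cbfb (0.997), Tcf4 to Pik3r1 (0.999) and Ppdpf (0.997), and Twist1 to Mindy4 (0.994) and Etnk1 (0.993). Zeb1 was closest to Zfhx3 (0.998) and Hcfc1r1 (0.997). Such values are common with so few libraries: the number of genes above 0.9 was 1348 for Snai1 and 316 for Twist2.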

How the data were processed

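The authors deposited raw counts per gene. Per the submitters' processing notes the tools were STAR 2.7.10b, featureCounts, cutadapt and Trim Galore, with mm10 as the build. Settings, annotation and strandedness: not given in the sources used here. Symbols, positions and exon lengths came from GENCODE M21 (GRCm38), which matched 91.3% of identifiers; 99.9% of matches carry a later version in the table, so exon lengths may differ from those counted. Promoters came from RefSeq tables.

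Genes were kept with filterByExpr (edgeR 4.0.16, R 4.3.3), scaled with TMM, and tested in 1 quasi-likelihood fit of all 6 libraries on group alone (3 residual degrees of freedom). Adjusted p-values are Benjamini-Hochberg over all 16093 tested genes, with a threshold of 0.05. SE was derived as the size of the log2 fold change over the root of F. The code was tested on simulated data. Log2 CPM uses a prior count of 2. Alternatives used limma 3.58.1 (voom) and DESeq2 1.42.0. At 17669006 to 21350111 counts a library, 3 counts correspond to 0.139 to 0.174 CPM; no molecular identifiers are described, so floors cover counting error only.

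Members, lists and tests were chosen with earlier results of these data known, so no list's p was computed. Named genes are all members and the 2 genes most correlated with each member. Of a list, up to 4 genes with the smallest unadjusted p over the 3 groups are named. Tcf12, Tcf3, Snai3, Cdh1, Krt5, Ptprc, Itgam, Cd14, Sox10, Mbp and Mitf were named for their role or count after their values were seen. So were Perp, Trp63, Cdh2, Vim, Thbs1, Acta2, Cspg4, Abcc9, Kcnj8, Rgs5, Sox9, Cnmd, Col1a1, Col1a2 and S100a4. The same holds for St14, Dsp, Grhl1, Krt14, Dcn, Lum, Adipoq, Plin1, Cd36, Myh3, Actc1, Chrna1 and Myog. A gene near the filter can enter through the group where it is high, which favours that direction in list and marker counts. One gene that this rule covers is not reported here.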

Additional observations from a re-analysis of the deposited data

How the results depend on the processing

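Over 15 alternatives in each of 27 comparisons of a member, 405 values in all, 383 kept both direction and side of the threshold. Of the others, 12 lost the call, 9 gained it, and 1 reversed: Twist2 on 20 kPa over glass was 0.01 without glass replicate 1, and -0.11 to 0.01 over all libraries left out in turn, with no value past the threshold. The changes that ended or made a call stand beside the results. The number of members called was 6 to 8 on 1 kPa over glass, 7 to 8 on 20 kPa over glass, and 3 to 6 on 20 kPa over 1 kPa when 1 library was left out (3 without either 1 kPa library or 20 kPa replicate 1). For 20 kPa over 1 kPa, 3035 genes passed, 2022 with DESeq2, and 1680 to 3824 without 1 library. The values without any 1 of the 4 gel libraries were under 2022, where that group keeps 1 library, assumed to vary like the others.

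Same-numbered libraries did not deviate together (correlations of -0.0347 to -0.0158 across genes). No shared effect of the number was seen, but with 2 libraries a group this cannot tell if libraries were made in pairs. With the replicate number as a block, 7032 genes were called on 1 kPa over glass, 6526 on 20 kPa over glass and 2862 on 20 kPa over 1 kPa, and the members called were 6, 8 and 5, as without it. The counts of called genes in each list under these settings were added after seeing the data. Only 2 libraries a group limit the precision, and few counts limit the epithelial genes.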

Other observations

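Other transcription factors of dermal and limb mesenchyme, a list that holds none of the members above, are described here. Of 26 tested of 30 listed, 15 rose and 5 fell on 1 kPa against glass (median log2 fold change 0.43), 12 rose and 4 fell on 20 kPa against glass (0.21), and 7 rose and 5 fell on 20 kPa against 1 kPa (-0.03), where 45%, 41.8% and 18.9% of all genes passed. The number that fell was 3 on 1 kPa without 1 kPa replicate 2, and 3 on 20 kPa against 1 kPa without 20 kPa replicate 2. Lef1, a Wnt effector of dermal condensates, had 8.48 and 9.14 CPM on 1 kPa, 14.2 and 12.7 CPM on 20 kPa, and 0.601 and 0.87 CPM on glass. On the log2 scale it rose by 3.60 (SE 0.23, edgeR adjusted p = 7.3e-14) on 1 kPa and 4.21 (SE 0.22, edgeR adjusted p = 4.1e-16) on 20 kPa. Runx1, a runt-domain factor, rose by 0.88 (SE 0.06) on 1 kPa and 0.84 (SE 0.06) on 20 kPa, and Nfatc4, a calcium-responsive factor, by 0.70 (SE 0.06) and 0.46 (SE 0.06). Nfix, a nuclear factor I gene, fell by 0.54 (SE 0.06) and 0.26 (SE 0.06).

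Markers of other mesenchymal lineages also differed between substrates. The 10 chondrocyte markers summed to 885 and 860 CPM on 1 kPa and 1541 and 1482 CPM on 20 kPa. On glass the sums were 619 and 583 CPM. All 9 tested passed as higher on 20 kPa than on 1 kPa, as did 8.94% of all genes. Against glass, 5 of them rose and 2 fell on 1 kPa, and 8 rose and 1 fell on 20 kPa. Sox9 fell on both gels, with means of 164 CPM on 1 kPa, 251 CPM on 20 kPa and 285 CPM on glass. Cnmd fell on 1 kPa. The 10 adipocyte markers summed to 752 and 705 CPM on 1 kPa and 575 and 550 CPM on 20 kPa. On glass the sums were 212 and 224 CPM. All 7 tested rose on both gels against glass, as did 16.4% of all genes. Of these markers, Adipoq, with 0 counts on glass, Plin1 and Cd36 entered the test through the gels alone, which favoured that direction. The 10 skeletal muscle markers summed to 29.6 and 27.7 CPM on 1 kPa and 15.5 and 12.8 CPM on 20 kPa. Their sums on glass were 3.14 and 4.29 CPM, and Pax7 was at 0 in all libraries. Of 6 tested, 6 rose on 1 kPa and 5 on 20 kPa against glass, and 0 fell. Among these, Myh3, Actc1, Chrna1 and Myog entered the test through the gels alone, which favoured that direction. The 10 pericyte and vascular smooth muscle markers summed to 536 and 557 CPM on 1 kPa, 652 and 651 CPM on 20 kPa, and 1177 and 1132 CPM on glass. That sum was mostly Acta2, with means of 311 CPM on 1 kPa, 380 CPM on 20 kPa and 792 CPM on glass, and Cspg4, while of the 10 tested 4 rose and 4 fell on 1 kPa and 3 rose and 5 fell on 20 kPa. Abcc9 and Kcnj8, pericyte channel genes at no more than 1.41 CPM, and Rgs5 were among those that rose on both gels. These genes too entered the test through the gels alone. The 10 endothelial markers summed to 74.1 and 67.9 CPM, 100 and 95.6 CPM, and 66.9 and 64.8 CPM on the same substrates. Much of that sum was Erg, with means of 30 CPM on 1 kPa, 59.5 CPM on 20 kPa and 44.7 CPM on glass. Of the 10 endothelial markers, 6 rose and 1, Erg, fell on 1 kPa against glass. On 20 kPa against glass, 8 rose and 0 fell. The part of cells of these lineages in the levels of the 9 members was not tested.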
